A study of Bos taurus with 20 samples.

Results

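MSX1, MSX2, RUNX2, TWIST1, TWIST2 and ZEB2 are transcription factors of skull and appendage development, and their RNA was followed here in skin from the site where cattle grow horns. The members were every non-control probe that carries the name of 1 of these 6 genes, or whose annotation describes it, on a 2-colour Agilent cattle array. These 6 of 14701 genes named on the array had 8 of its 21475 gene probes, with RUNX2 and ZEB2 each covered by 2 and the other genes by 1. Total RNA came from biopsies of epidermis, dermis and the connective tissue under it. The horn-forming region of the skull was sampled in 4 scurred, 4 polled and 3 horned animals, all Bos taurus. Scurred cattle carry small, loosely attached horn growths, polled cattle carry none and horned cattle carry full horns. The scurred animals were 3 males and 1 female, the polled animals 1 male and 3 females, and the horned animals 2 males and 1 female; the labels used here give no ages. Chips 1 to 4 (16 arrays) set 1 scurred, 1 polled and 1 horned animal against each other in a closed loop. The scurred or polled animal numbered n is the one on chip n, and horned replicate 2 served on both chips 2 and 4. Chip 5 (4 arrays) set the horn site against a control site elsewhere on the skull in scurred replicate 2 and polled replicate 3, each in both dye orders. The biopsies are pieces of whole skin, so each value averages over all cell types present, and no horned animal was sampled at a control site.

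MSX1 and MSX2 are homeobox factors that act downstream of BMP signals where epithelium meets mesenchyme, in skull bones, teeth and skin appendages. RUNX2 is the factor without which cells do not become osteoblasts. TWIST1 and TWIST2 are basic helix-loop-helix factors that pair with E proteins, can hold back RUNX2 and are needed for normal skull sutures and skin. ZEB2 is a zinc finger factor of neural crest and mesenchyme that represses epithelial genes. In cattle a deletion that takes in ZEB2 occurs with a polled phenotype in a wider syndrome, and a frameshift in TWIST1 occurs with a form of scurs. Whether these factors differ in level between horn types in formed skin is what the comparisons below address.

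The first 30 bases of each 60-base probe are shown because the probe is all that these arrays measured of a gene, and because the pairs of probes for RUNX2 and ZEB2 lie in different sequence. All are written 5′ to 3′ as the array files give them, and no base is marked.
MSX1, A_73_116270: cttctgtttctatttaacagtacatgtggg
MSX2, A_73_113221: ttaatctgccagatgcgccccccacccctt
RUNX2, bright probe A_73_120148: gcccaagagagagacagtcctaaccaggtt
RUNX2, dim probe A_73_119266: tccaacccactccttctcctgttatgcaaa
TWIST1, A_73_100106: ggtaacggtcagagggattttaagaacacc
TWIST2, A_73_106896: acctcggttttgcacaagccggccttgaaa
ZEB2, transcript probe A_73_116307: gagggactgttaaatacaatgtatgatacc
ZEB2, intronic probe A_73_111458: cacagatgttaccacttttagaaacttcca
No pair of these probes shared a run of more than 11 bases over their full length, and MSX1 and MSX2 shared no run longer than 7. The array's annotation places 1 ZEB2 probe in an intronic region and the other in a transcript.

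In every channel of all 20 arrays, 6 of the 8 probes were well above background, with 2 spots on each array and 80 spot values a probe. They were the probes for MSX1, MSX2 and TWIST1, the bright RUNX2 probe and both ZEB2 probes. The dim RUNX2 probe was well above background in 63 of 80 spot values (78.8%) and in 10 of 11 animals. TWIST2 was well above background in 2 of 80 spot values (2.5%) and in none of the 11 animals. The 7 probes of 5 genes that were tested stand among 15712 probes with a clear signal in 3 or more animals.

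Across the arrays, 62.24% to 73.75% of spots in a channel were well above background, at most 2 spots an array were saturated and at most 0.044% carried an outlier flag. Chip 1 was scanned on another day than chips 2 to 5, and since chips 1 to 4 each held all 3 horn types, the comparisons between animals were made within chips. Scurred replicate 1 was the animal least like the others (mean correlation 0.923 over tested probes, against 0.949 to 0.965 in the other 10 animals). Scurred replicate 4 stood apart in genes of bone, whose values are given with RUNX2. Values without either animal are given beside the results that it moved most. Levels below are normalised log2 intensities, with 1 value per animal, and differences are log2 differences from a limma fit with terms for horn type and sex. Chip 2 held the only polled male and the only scurred female. A fit without that chip, or without either of these animals, separates horn type and sex less well. Adjusted p-values are Benjamini-Hochberg values over all tested probes, and a call means an adjusted p under 0.05. Scurred minus horned and polled minus horned share the same 3 horned animals.

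**Figure D1:**
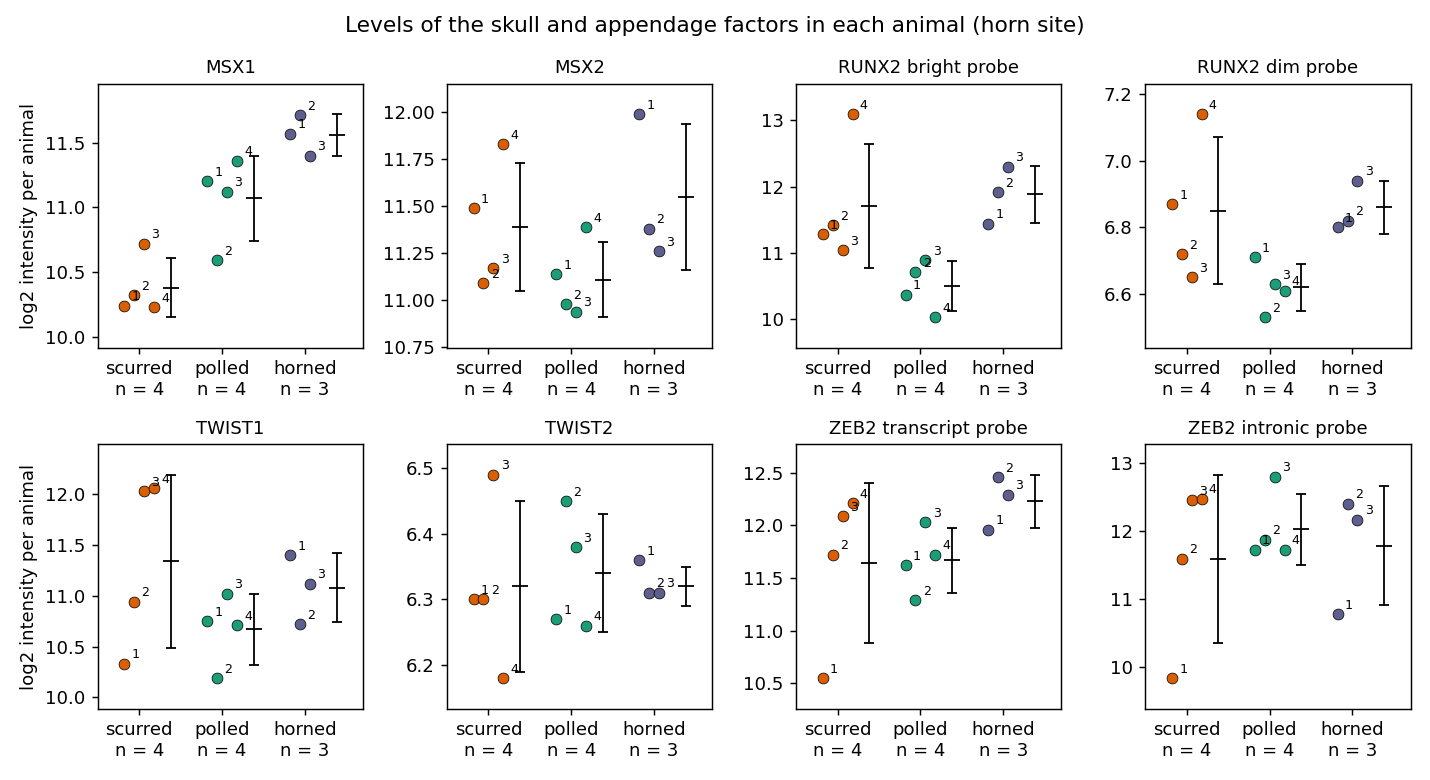
Log2 intensity of each of the 8 probes (vertical axes, a scale for each panel) in each scurred, polled and horned animal, labelled with its replicate number; bars give the group mean with its SD. MSX1 was lower in all 4 scurred and all 4 polled animals than in any horned animal, the bright RUNX2 probe was lower in all polled animals than in any other, and TWIST2 lay between 6.18 and 6.49 in all 11.

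MSX1 levels were lowest in scurred skin, intermediate in polled skin and highest in horned skin, without passing the adjusted test. Its log2 levels were 10.24, 10.32, 10.72 and 10.23 in the scurred animals, 11.20, 10.59, 11.12 and 11.36 in the polled animals and 11.57, 11.71 and 11.40 in the horned animals. Every scurred animal lay below every horned animal, as for 2.65% of all tested probes, and so did every polled animal, as for 4.96%. A single polled animal (replicate 2, the polled male) lay below the highest scurred animal. The fitted scurred minus horned difference was −1.10 (SE 0.18, 95% interval −1.53 to −0.68), a scurred level of 46.6% of the horned level. Its unadjusted p of 0.000445 ranked 6 of 15712, and it did not pass the test after adjustment (adjusted p 1). On the 4 chips the scurred minus horned differences were −1.41, −1.28, −0.69 and −1.37. Leaving out each animal or each chip in turn kept the difference between −1.26 and −0.98.

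In polled skin MSX1 stood at 65.7% of the horned level, a difference of −0.61 (SE 0.189, 95% interval −1.05 to −0.16, unadjusted p 0.0146, adjusted p 0.486). The polled minus horned differences by chip were −0.36, −1.11, −0.27 and −0.35, so chip 2 gave the most negative value. Without polled replicate 2 the fitted difference was −0.38 (unadjusted p 0.159). With 1 animal or chip left out the unadjusted p ranged from 0.00712 to 0.207, the highest without chip 2. Scurred minus polled was −0.50 (SE 0.183, 95% interval −0.93 to −0.06, unadjusted p 0.0298, adjusted p 0.793). It was −0.77 without polled replicate 2 and −0.34 without scurred replicate 2, and with 1 animal or chip left out its unadjusted p ranged from 0.00952 to 0.184, the highest without scurred replicate 2. The scurred animal was below the polled animal on 4 of 4 chips, by −1.05, −0.17, −0.42 and −1.02, as for 9.43% of all probes. Repeat measurements of MSX1 were close, with a median SD of 0.054 between the array values of 1 animal. Both dye orders gave the same sign in 6 of 6 comparisons that had both.

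The groups did not overlap for 1 of the 7 tested probes in scurred minus horned, the MSX1 probe, against the 2.65% of all probes given above. For polled minus horned the groups did not overlap for 3 of 7 probes, all lower, namely MSX1 and both RUNX2 probes, against 4.96% of all probes. The RUNX2 probes are of the same gene, so they are not separate results, and the dim one lay near background. No probe of these genes was called in any comparison. Over all probes 0.00636% were called in polled minus horned, and 0% in scurred minus horned, scurred minus polled and horn site minus control site. At an unadjusted p under 0.05 stood 1 of 7 probes in scurred minus horned (3.73% over all probes), 2 of 7 in polled minus horned (9.3%) and 1 of 7 in scurred minus polled (6%).

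Markers of other cell types moved between the groups, and in whole skin fewer cells of a type and less RNA per cell cannot be told apart. Keratinocyte markers (7 of 8 measured) were higher in 7 of 7 for both scurred minus horned (median 2.24) and polled minus horned (median 2.06). Fibroblast markers were lower in 4 of 8 for scurred minus horned (median 0.0162; higher in 7 of 8 without scurred replicate 1 and in 1 of 8 without scurred replicate 4) and in 8 of 8 for polled minus horned (median −1.07). Smooth muscle markers had the order of MSX1, lower in 5 of 5 for scurred minus horned (median −0.937), polled minus horned (median −0.617) and scurred minus polled (median −0.275). Endothelial medians had the same order. These markers were lower in 5 of 5 for scurred minus horned (median −0.586) and in 4 of 5 for polled minus horned (median −0.211). In scurred minus polled 4 of 5 were lower (median −0.071). Markers of skeletal muscle, melanocytes and lymphocytes were higher in all of the 5, 4 and 5 measured in both comparisons, with medians of 1.24, 1.26 and 0.804 in scurred minus horned and 1.84, 1.62 and 0.717 in polled minus horned. Hair follicle markers were lower in 5 of 5 for scurred minus horned (median −0.207) and higher in 4 of 5 for polled minus horned (median 1.82). Macrophage markers were higher in 4 of 6 for scurred minus horned (median 0.132) and lower in 6 of 6 for polled minus horned (median −0.81). The macrophage gene AIF1 was the 1 probe called of all tested, at −1.71 in polled minus horned (SE 0.115, adjusted p 0.0199), while 0 probes were called there with median centring, the scanner's processed signals or the deposited log ratios, or without the replicate block.

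The marker levels varied between animals of a group. The mean log2 level of the keratinocyte list ranged from 9.64 to 14.56 in scurred, 10.50 to 12.86 in polled and 9.58 to 10.76 in horned animals. For the fibroblast list it ranged from 14.07 to 15.41 in scurred, 13.57 to 14.86 in polled and 15.09 to 15.18 in horned animals, and for the smooth muscle list from 13.23 to 14.51, 14.17 to 15.25 and 13.93 to 15.77 in the same groups. On chips 1 to 4, where MSX1 stood at −1.41, −1.28, −0.69 and −1.37 in scurred minus horned, the keratinocyte median stood at 5.14, 3.14, 0.40 and −0.69 and the smooth muscle median at −2.33, −0.43, −0.05 and −0.90. In polled minus horned, beside MSX1 at −0.36, −1.11, −0.27 and −0.35, the keratinocyte median stood at 2.29, 2.37, 1.10 and 1.67 and the smooth muscle median at −1.54, −0.90, 0.57 and 0.06. The part of these markers in the MSX1 result was not tested.

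MSX2, the paralogue of MSX1, did not share its order. Its log2 levels were 11.49, 11.09, 11.17 and 11.83 in scurred animals, 11.14, 10.98, 10.94 and 11.39 in polled animals and 11.99, 11.38 and 11.26 in horned animals. The groups overlapped in every pair. Scurred minus horned was 0.04 (SE 0.173, 95% interval −0.37 to 0.45), with 2 of 4 chips higher. Polled minus horned was −0.34 (SE 0.182, 95% interval −0.77 to 0.09, adjusted p 0.587) and was lower on 4 of 4 chips, by −0.89 to −0.08, as for 13.1% of all probes. Scurred minus polled was 0.38 (SE 0.176, 95% interval −0.03 to 0.80, adjusted p 0.844) and was higher on 4 of 4 chips, by 0.12 to 0.72, as for 9.55% of all probes. Without chip 2, polled minus horned was 0.00 and scurred minus polled −0.11. The other chips themselves gave −0.89, −0.25 and −0.08 in polled minus horned and 0.72, 0.12 and 0.65 in scurred minus polled. Without chip 2 all scurred animals left were male and all polled animals left female, so horn type and sex are harder to separate. The MSX2 probe repeated less well than that of MSX1, with a median SD of 0.177 between the array values of 1 animal and a largest SD of 0.703. Both dye orders gave the same sign for MSX2 in 3 of 6 comparisons.

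**Figure D2:**
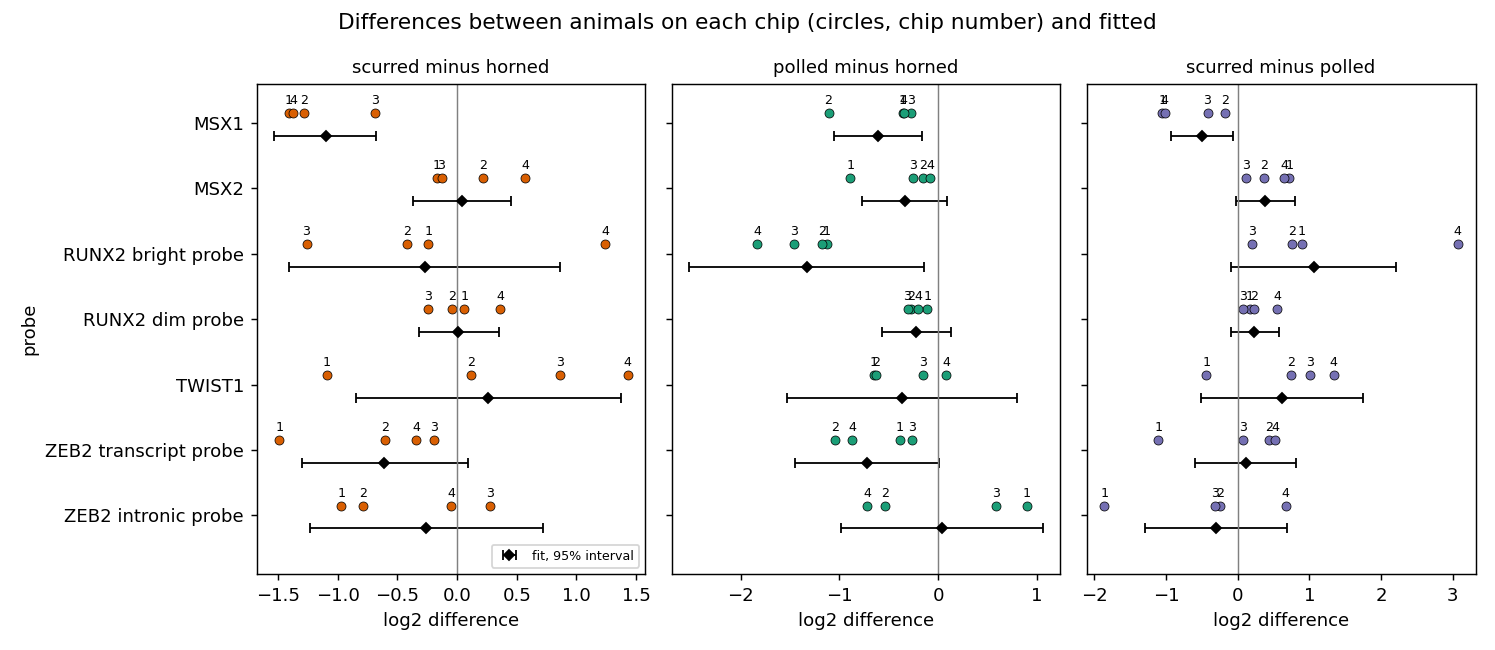
Log2 differences (horizontal axes) on each of chips 1 to 4 for the 7 tested probes (circles with the chip number), with the fitted difference and its 95% interval (diamonds and bars). MSX1 was below 0 on all 4 chips in all 3 panels; for the bright RUNX2 probe chip 4 stood at 1.24 in scurred minus horned and 3.07 in scurred minus polled.

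RUNX2 levels were lower in polled skin than in scurred or horned skin, without passing the adjusted test. The bright probe gave log2 levels of 11.28, 11.42, 11.04 and 13.09 in scurred animals, 10.37, 10.71, 10.89 and 10.03 in polled animals and 11.44, 11.91 and 12.30 in horned animals. All 4 polled animals lay below all scurred and all horned animals, and scurred replicate 4 lay above all others. Polled minus horned was −1.33 (SE 0.506, 95% interval −2.52 to −0.14), a polled level of 39.8% of the horned level, with an unadjusted p of 0.0337 and an adjusted p of 0.523. The chips gave −1.13, −1.18, −1.46 and −1.83. Without polled replicate 2 the difference was −0.95 (unadjusted p 0.221). Without scurred replicate 4, whose spread enters the same fit, it was −1.40 (unadjusted p 0.00209, adjusted p 0.197). With 1 animal or chip left out the unadjusted p ranged from 0.00209 to 0.323, the highest without chip 2.

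Scurred minus polled for the bright RUNX2 probe was 1.06 (SE 0.491, 95% interval −0.10 to 2.21, adjusted p 0.844), a scurred level of 208% of the polled level. It was 0.77 without scurred replicate 4 (unadjusted p 0.0315, against 0.068 with it) and 0.60 without polled replicate 2 (unadjusted p 0.463). With 1 animal or chip left out the unadjusted p ranged from 0.0197 to 0.604, the highest without chip 2. On the chips the scurred minus polled differences were 0.89, 0.76, 0.20 and 3.07, so 3 chips lay under 1 and chip 4 far above them. The groups did not overlap for this 1 probe of 7, which was higher; over all probes 1.43% were higher without overlap. Scurred minus horned was −0.27 (SE 0.482, 95% interval −1.41 to 0.86), with −0.24, −0.42, −1.26 and 1.24 on the chips, and it was −0.64 without scurred replicate 4 and 0.15 without scurred replicate 3.

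The dim RUNX2 probe followed the bright one on chips 1 to 4, at a size that depended on the processing. Its levels were 6.87, 6.72, 6.65 and 7.14 in scurred animals, 6.71, 6.53, 6.63 and 6.61 in polled animals and 6.80, 6.82 and 6.94 in horned animals. Again every polled animal lay below every horned animal and scurred replicate 4 was the highest of all. Unlike at the bright probe, the scurred and polled animals overlapped. Polled minus horned was −0.22 (SE 0.148, 95% interval −0.57 to 0.13) and scurred minus polled 0.23 (SE 0.144), both with the same sign on 4 of 4 chips. With the scanner's processed signals they were −0.67 and 0.72, and with the deposited log ratios −0.73 and 0.69. Across the 8 differences between an animal and the horned animal of its chip, the 2 probes correlated at r = 0.946, a description over differences that share horned animals. This probe lay near background.

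**Figure D3:**
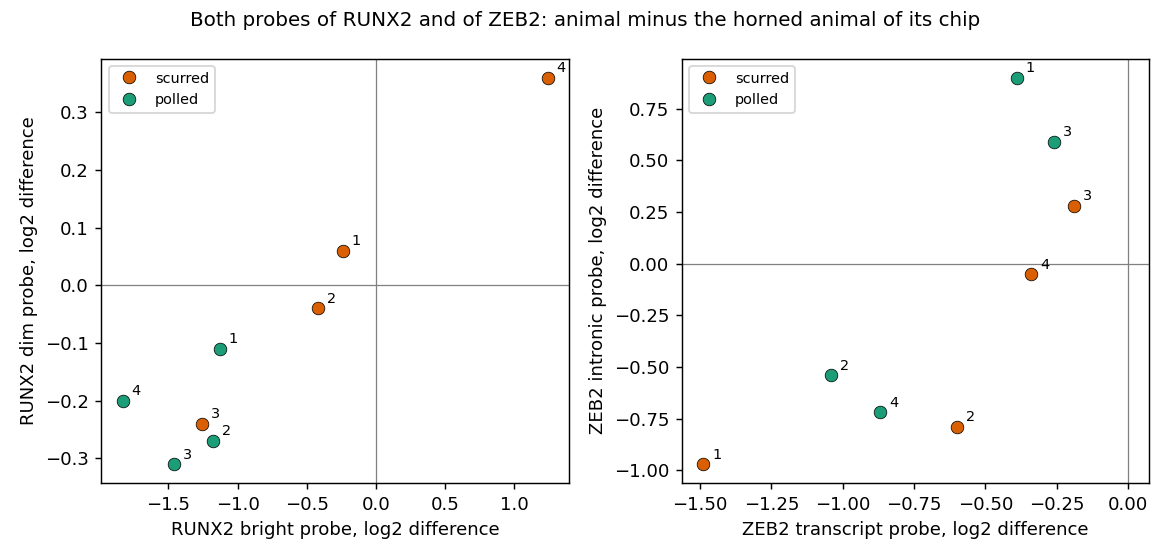
Log2 difference between each scurred or polled animal and the horned animal of its chip for the bright (horizontal) and dim (vertical) RUNX2 probes, left, and for the transcript (horizontal) and intronic (vertical) ZEB2 probes, right; numbers are chips. The RUNX2 probes gave the same 3 highest animals (r = 0.946). The ZEB2 probes had opposite signs for the polled animals of chips 1 and 3 and for the scurred animal of chip 3 (r = 0.781).

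Genes of the osteoblast programme around RUNX2 set scurred replicate 4 apart from the other 10 animals. Of the 16 such genes on the array, 13 were highest in this animal. Over the 15712 tested probes this animal held the highest level for 5.12%, but only 11 of the 16 genes were tested. The untested genes IBSP and PHEX (well above background in 1 animal) and DMP1 and MMP13 (in 2) were among the 13. IBSP, a mineral-binding protein of bone matrix, stood at 12.59 there against 6.14 to 6.54 in the other 10 animals, and was well above background in that animal alone. DMP1, a matrix protein of osteocytes, stood at 12.42 against 6.19 to 6.66, and PHEX, an enzyme of osteocytes, at 8.18 against 6.11 to 6.31. BGLAP, osteocalcin, stood at 14.18 against 10.37 to 11.10, and SPP1, osteopontin, at 17.56 against 11.84 to 14.96. DLX5, a factor that acts beside RUNX2, stood at 11.10 against 7.48 to 9.23. SP7, the factor that follows RUNX2 in osteoblasts, was not well above background in any of the 11 animals, and ATF4 and POSTN were not highest in scurred replicate 4. RUNX2 in this animal was thus high beside bone markers, whose part in the RUNX2 result was not tested. The labels list no bone among the tissues of the biopsies.

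**Figure D4:**
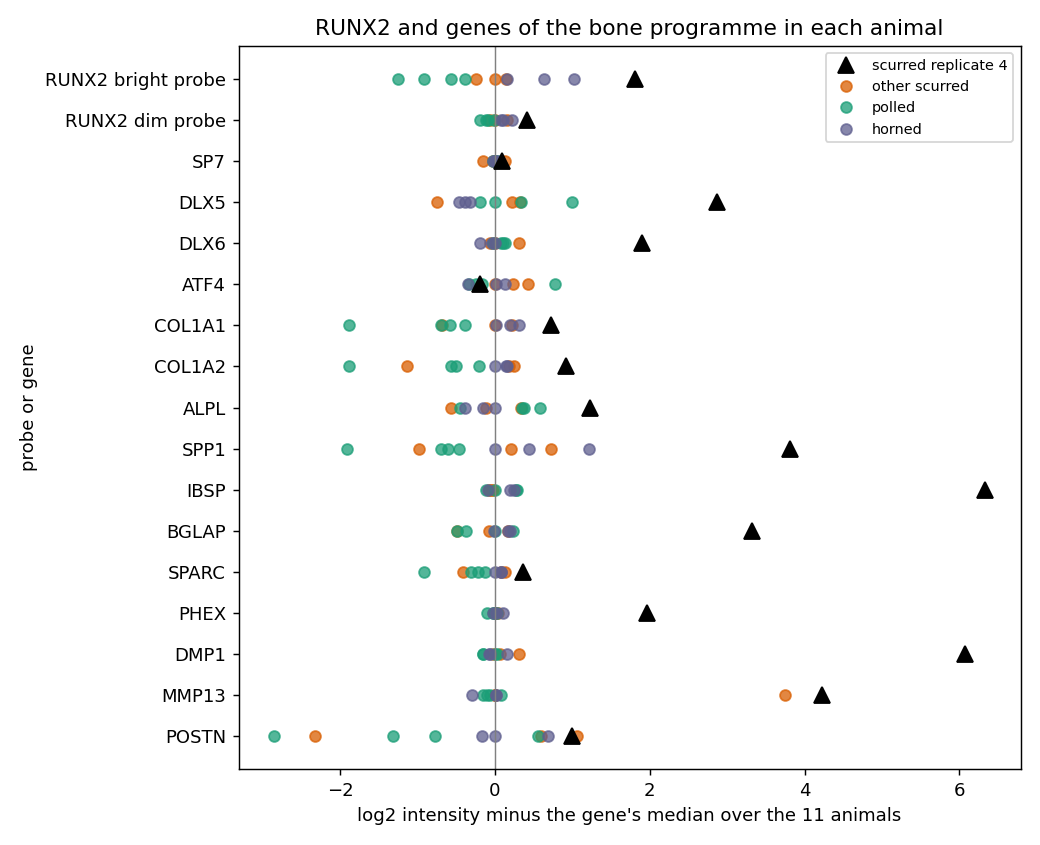
Log2 intensity of both RUNX2 probes and of 15 genes of the bone programme in each animal, as the difference from that gene's median over the 11 animals (horizontal axis); triangles mark scurred replicate 4 and circles the other scurred, the polled and the horned animals. Scurred replicate 4 was the highest animal for both RUNX2 probes and for 12 of the 15 genes drawn.

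Of this bone list 11 genes were tested, and none was called. In scurred minus horned 10 were higher and 1 lower (median 0.268, against 0.00623 over all tested probes), and without scurred replicate 4 the count was 5 higher and 6 lower (median −0.0794). In scurred minus polled 10 were higher and 1 lower (median 0.64, against −0.0077 over all tested probes), and without that animal 7 were higher and 4 lower (median 0.183). In polled minus horned 5 were higher and 6 lower (median −0.0823, against 0.0125 over all tested probes). The genes with the lowest p there were the fibrillar collagen genes COL1A1 at −1.52 (SE 0.651) and COL1A2 at −1.28 (SE 0.635), which skin fibroblasts also make, and SPARC, a matrix protein, at −0.67 (SE 0.327). On chips 1 to 4, where the bright RUNX2 probe stood at −1.13, −1.18, −1.46 and −1.83 in polled minus horned, the median of the fibroblast markers stood at −0.68, −1.81, −0.16 and −0.39, and their part in the RUNX2 result was not tested. Of a shorter list of osteoblast and chondrocyte markers 5 of 8 were measured, with 3 higher in scurred minus horned (median 0.558) and 2 higher in polled minus horned (median −0.03).

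TWIST1 varied more among scurred animals than between horn types. Its log2 levels were 10.33, 10.94, 12.03 and 12.06 in scurred animals, 10.75, 10.19, 11.02 and 10.71 in polled animals and 11.40, 10.72 and 11.12 in horned animals. The scurred animals held both the 2 highest values and 1 of the 2 lowest, and all groups overlapped. Scurred minus horned was 0.26 (SE 0.471, 95% interval −0.85 to 1.37), with −1.09, 0.12, 0.86 and 1.43 on the chips. Without scurred replicate 1 it was 0.73, and without scurred replicate 4 it was −0.03. Polled minus horned was −0.37 (SE 0.495, 95% interval −1.53 to 0.80), which turned to 0.45 without polled replicate 2, the polled male. The other polled animals stood at −0.65, −0.15 and 0.08 on their chips, and without the polled male horn type and sex are harder to separate. Scurred minus polled was 0.62 (SE 0.48, 95% interval −0.51 to 1.75, adjusted p 0.881), higher on 3 of 4 chips. It was 1 without scurred replicate 1, where the unadjusted p was 0.0354 against 0.235 with it (adjusted p 0.524), and 0.39 without scurred replicate 4. Without polled replicate 2 scurred minus polled turned to −0.41, with the same limit on separating horn type and sex.

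TWIST2, the paralogue that is known for its role in dermis, lay between 6.18 and 6.49 in all 11 animals. These are values at background, so the groups have no order. The array's single probe says only that no signal was measured with it.

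Of the genes that share the TWIST factors' partners, 7 of 7 were measured and none was called. They are the E proteins TCF3, TCF4 and TCF12, which pair with TWIST1, and ID1 to ID4, which compete for those E proteins. In scurred minus horned 1 was higher and 6 lower (median −0.147). ID4 was at −0.76 (SE 0.314, adjusted p 1), ID2 at −0.40 (SE 0.25) and ID3 at −0.37 (SE 0.212), while TCF3 was at 0.24 (SE 0.178). Between polled and horned animals 2 were higher and 5 lower (median −0.0397), with ID4 at −0.55 (SE 0.33) and ID3 at −0.44 (SE 0.223). In scurred minus polled 2 were higher and 5 lower (median −0.0397).

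ZEB2 depended on the probe. The transcript probe gave log2 levels of 10.55, 11.72, 12.09 and 12.21 in scurred animals, 11.62, 11.29, 12.03 and 11.72 in polled animals and 11.96, 12.46 and 12.29 in horned animals. Below the lowest horned animal lay 2 of 4 scurred and 3 of 4 polled animals, so each group overlapped the horned one. Polled minus horned was −0.72 (SE 0.31, 95% interval −1.45 to 0.01), a polled level of 60.7% of the horned level (unadjusted p 0.052, adjusted p 0.539). Scurred minus horned was −0.61 (SE 0.295, 95% interval −1.30 to 0.09, adjusted p 1), a scurred level of 65.6% of the horned level. Both were lower on 4 of 4 chips, by −1.04 to −0.26 in polled and by −1.49 to −0.19 in scurred animals. Over all probes, 9.71% were lower on 4 of 4 chips in scurred minus horned. Without scurred replicate 1 the scurred minus horned difference was −0.26. Scurred minus polled was 0.11 (SE 0.3, 95% interval −0.60 to 0.82), and 0.39 without scurred replicate 1, where the unadjusted p was 0.053 against 0.72 with it, and −0.02 without scurred replicate 4. Without scurred replicate 1 polled minus horned was −0.65, with an unadjusted p of 0.00564 and an adjusted p of 0.304. That unadjusted p was the lowest with 1 animal or chip left out. The highest was 0.415, without chip 2, and without polled replicate 2 it was 0.238.

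The intronic ZEB2 probe gave 9.84, 11.59, 12.45 and 12.47 in scurred animals, 11.72, 11.87, 12.79 and 11.72 in polled animals and 10.78, 12.40 and 12.16 in horned animals. Polled replicate 3 was the highest and scurred replicate 1 the lowest, and the groups overlapped. Over all tested probes, polled replicate 3 was the highest animal for 7.12% and scurred replicate 1 the lowest for 24.2%. Polled minus horned was 0.04 (SE 0.433, 95% interval −0.98 to 1.06), with 0.90 and 0.59 on chips 1 and 3 and −0.54 and −0.72 on chips 2 and 4. Scurred minus horned was −0.26 (SE 0.412, 95% interval −1.23 to 0.72) and scurred minus polled −0.30 (SE 0.42). Without scurred replicate 1 they turned to 0.13 and 0.01, and without scurred replicate 4 scurred minus horned was −0.50. A signal from an intronic probe can come from unspliced RNA, another transcript form or another RNA of the region, which these arrays cannot separate.

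Schwann cell markers moved beside the ZEB2 transcript probe in part. On the 4 chips that probe stood at −1.49, −0.60, −0.19 and −0.34 in scurred minus horned, where the median of 4 measured Schwann markers stood at −1.32, −0.34, −0.28 and −0.08. In polled minus horned the probe stood at −0.39, −1.04, −0.26 and −0.87, and the Schwann median at 0.14, −1.17, 0.42 and −0.94, so their signs differed on chips 1 and 3. In the scurred minus horned fit 3 of the 4 markers were lower and 1 was higher, S100B at 0.15. S100B and PMP22 were among the 4 measured, while SOX10 and MAG were well above background in 0 of 11 animals. The mean log2 level of the 4 genes ranged from 10.82 to 12.31 in scurred, 11.15 to 12.48 in polled and 11.94 to 12.47 in horned animals. On the same chips the fibroblast median stood at −1.23, −0.01, 0.43 and 0.17 in scurred minus horned. In polled minus horned it stood at −0.68, −1.81, −0.16 and −0.39. The part of the Schwann and fibroblast markers in the ZEB2 result was not tested.

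Among other factors of epithelial-mesenchymal transition and the genes they act on, 11 of 14 were measured and none was called. In polled minus horned 7 were higher and 4 lower (median 0.717). The lowest p-values belonged to epithelial genes, which were higher: EPCAM, an epithelial adhesion molecule, at 2.74 (SE 0.886), the splicing factor ESRP1 at 1.96 (SE 0.794), and the epithelial transcription factors OVOL2 at 1.88 (SE 0.67) and GRHL2 at 1.81 (SE 0.571), with adjusted p-values of 0.486 to 0.529. In scurred minus horned 10 were higher and 1 lower (median 0.768), among them SNAI2, a mesenchymal repressor, at 0.70 (SE 0.271), fibronectin FN1 at 0.81 (SE 0.38) and ESRP1 at 1.32 (SE 0.756). In scurred minus polled 5 were higher and 6 lower (median −0.0121), with FN1 at 0.99 (SE 0.387), vimentin VIM at 0.48 (SE 0.198) and EPCAM at −1.72 (SE 0.86). The keratinocyte and fibroblast markers given with MSX1 moved beside these genes, and their part was not tested.

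The horn site was set against the control site in 1 scurred and 1 polled animal, so the sizes are given first and the test has 1 residual degree of freedom. MSX1 was lower at the horn site in both, with 9.97 at the horn site and 10.25 at the control site in the scurred animal, and 10.74 at the horn site and 11.85 at the control site in the polled animal. These are differences of −0.28 and −1.11 (mean −0.69, SE 0.259, adjusted p 0.962). The bright RUNX2 probe was higher at the horn site in both, by 1.12 in the scurred animal (11.06 at the horn site, 9.94 at the control site) and by 0.20 in the polled animal (10.64 at the horn site, 10.44 at the control site). Its mean difference was 0.66 (SE 0.283, adjusted p 0.962). Of all 15290 probes tested there, 26.5% were lower and 24% higher in 2 of 2 animals, and of the 7 probes of these genes 2 were lower and 4 higher.

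ZEB2 was higher at the horn site with both probes. The transcript probe gave differences of 0.53 in the scurred and 0.12 in the polled animal (mean 0.33, SE 0.162), and the intronic probe 0.62 and 0.37 (mean 0.50, SE 0.135, unadjusted p 0.0308, adjusted p 0.962). This was the 1 probe of 7 with an unadjusted p under 0.05, and over all probes 4.71% had one. The unadjusted p was 0.0735 with the scanner's processed signals, 0.0578 with the deposited log ratios and 0.547 with median centring, where the difference was 0.15. MSX2 was at 0.25 in the scurred and 0.21 in the polled animal (mean 0.23, SE 0.116). TWIST1 went opposite ways, at −0.18 in the scurred and 0.30 in the polled animal, a difference between animals that was not tested. The dim RUNX2 probe stood at −0.03 in both animals, and TWIST2 was at background at both sites. Schwann markers were higher at the horn site in 4 of 4 (median 0.892), skeletal muscle markers in 5 of 5 (median 2.73), macrophage markers in 6 of 6 (median 0.766), endothelial markers in 5 of 5 (median 0.448), fibroblast markers in 7 of 8 (median 0.267) and lymphocyte markers in 5 of 5 (median 0.0482). Melanocyte markers were lower there in 4 of 4 (median −0.947), smooth muscle markers in 4 of 5 (median −0.436), hair follicle markers in 4 of 5 (median −1.62) and keratinocyte markers in 6 of 7 (median −0.436). No marker was called, and their part in these values was not tested.

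**Figure D5:**
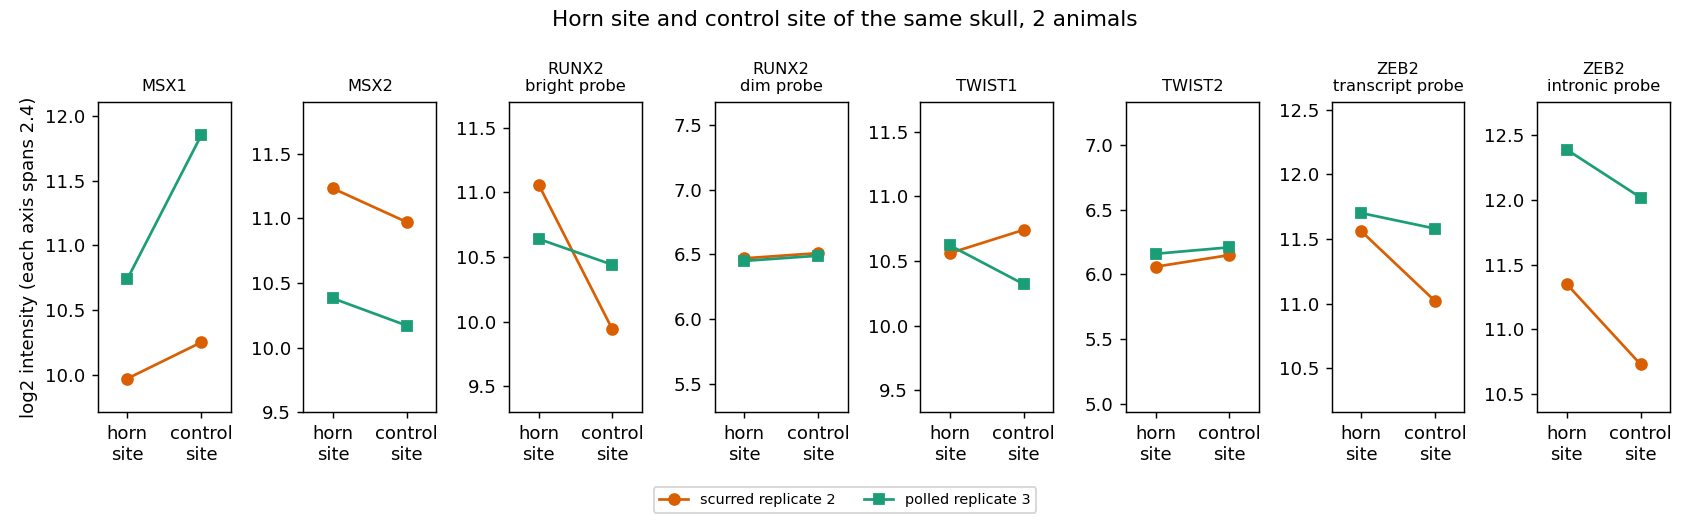
Log2 intensity (vertical axes, each spanning the same range) of the 8 probes at the horn site and the control site of scurred replicate 2 and polled replicate 3. MSX1 lay below its control site in both animals, the bright RUNX2 probe and both ZEB2 probes lay above it in both, and TWIST1 went opposite ways.

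Other transcription factors of skull, face and limb mesenchyme were measured for 18 of 25 genes, and none was called. In polled minus horned 10 were higher and 8 lower (median 0.0767). PRRX1, a homeobox factor of limb and skull mesenchyme, was at −0.80 (SE 0.177, unadjusted p 0.00269, adjusted p 0.432), while the neural crest factors PAX3 at 0.94 (SE 0.256), TFAP2B at 1.59 (SE 0.521) and TFAP2A at 0.53 (SE 0.218) were higher. In scurred minus horned 9 were higher and 9 lower (median −7.09e-05), with TFAP2B at 0.97 (SE 0.496) and PRRX1 at −0.25 (SE 0.169). In scurred minus polled PRRX1 was at 0.55 (SE 0.172) and PAX3 at −0.81 (SE 0.248). At the horn site against the control site 16 were measured, with 8 higher and 8 lower (median 0.00251). The genes with the lowest p there were all higher: PRRX1 was at 0.45 (SE 0.116), ALX1, a factor of facial mesenchyme, at 1.42 (SE 0.341), MEOX2 at 0.67 (SE 0.171) and OSR1 at 0.37 (SE 0.12).

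BMP and FGF signals lie upstream of MSX, TWIST and RUNX2, and 15 of 18 such genes were measured, with none called. Between polled and horned animals 9 were higher and 6 lower (median 0.0257). The ligand FGF18 was at −1.23 (SE 0.282, adjusted p 0.432) and the ligand FGF10 at −1.03 (SE 0.324), while FGFR2, a receptor, stood at 1.56 (SE 0.423) and SPRY2, an inhibitor inside the cell, stood at 1.01 (SE 0.252). In scurred minus horned 7 were higher and 8 lower (median −0.0529), with FGF18 at −0.78 (SE 0.269), FGFR2 at 0.97 (SE 0.402) and BMP4 at 0.47 (SE 0.27). In scurred minus polled 6 were higher and 9 lower (median −0.0377), with the BMP antagonist GREM1 at −0.79 (SE 0.214). At the horn site against the control site 9 were higher and 6 lower (median 0.0411). The genes with the lowest p there were all lower: GREM1 differed by −1.15 and −0.89 in the 2 animals (mean −1.02, SE 0.137, adjusted p 0.962), the inhibitor SMAD7 was at −0.53 (SE 0.125), BMP4 at −0.29 (SE 0.129) and the receptor BMPR1A at −0.21 (SE 0.117).

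The genes whose 8 animal-minus-horned differences were most like those of each member were picked from 11557 genes, and with 8 differences that share horned animals these correlations are descriptions. For MSX1 they included TUT4 (r = 0.974) and SLC2A4 (r = 0.958). RUNX2 was followed most closely by SMPD3 (r = 0.954), a sphingomyelinase of mineralising tissue that ranged from 0.09 to 2.85, CEMIP2 (r = 0.954) and FGF12 (r = 0.943). The FGF12 differences ranged only from −0.25 to 0.06, and the correlation takes no account of such size. ZEB2 was followed by PMP22 (r = 0.977), a protein of myelin that is also in the Schwann list, PLCB1 (r = 0.965) and RAMP2 (r = 0.962). For TWIST1 the genes were SSBP1 (r = 0.989), which ranged only from −0.13 to 0.12, LRP3 (r = 0.98) and SNX4 (r = 0.974). For MSX2 they were SLC44A4 (r = 0.988), CAMK1G (r = 0.985) and ARFGAP1 (r = 0.985). Among the members themselves, MSX1 was below 0 in 8 of the 8 differences and the bright RUNX2 probe in 7, and their values correlated at r = −0.771, so the animals with the most negative MSX1 difference tended to have the least negative RUNX2 difference. MSX1 and MSX2 correlated at r = −0.637, with MSX2 below 0 in 6 of 8.

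Sex was unevenly spread over the horn types and entered each fit as a term. The male minus female coefficient was −0.33 for MSX1 (SE 0.17, unmoderated), 0.35 for the bright RUNX2 probe (SE 0.516), 0.17 for MSX2 (SE 0.162), 0.09 for TWIST1 (SE 0.503) and −0.26 for the ZEB2 transcript probe (SE 0.306). Without the sex term, MSX1 was at −1.14 in scurred minus horned. In polled minus horned MSX1 was then at −0.48, with an unadjusted p of 0.051 against 0.0146 with the term. The bright RUNX2 probe was at −1.46 in polled minus horned without the term.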

How the data were processed

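RNA of 11 animals on 16 arrays of chips 1 to 4, and of 2 sites in 2 animals on 4 arrays of chip 5, was measured by 2-colour hybridisation. The deposited scanner files hold intensities of single spots, per the file headers; the submitters' processing notes list the scanner software as Agilent Feature Extraction, version 9.5.1. The authors' deposited value table holds log10 ratios, which equalled the scanner's log ratios with the same sign for 14 columns and the opposite sign for 6 (column medians −0.019 to 0.00971), so signs were set from the dye labels. Flags for outliers and for signal well above background are, per the file headers, the scanner's.

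Mean and local background intensities were corrected by normexp (offset 50) and normalised by loess within arrays in limma 3.58.1 (R 4.3.3), flagged spots were left out and the 2 spots of a probe averaged. On each chip, arrays were reduced to animal minus horned differences with a dye coefficient. These 8 differences were fitted by generalised least squares, with the shared horned animals in the covariance, on horn type and sex (5 residual degrees of freedom), with moderated two-sided tests adjusted over all tested probes. For chip 5 the mean of 2 animals was tested against 0 (1 residual degree of freedom). Levels per animal came from separate channels after loess and Aquantile normalisation, and intervals are 95%. A probe was tested if at least 50% of an animal's spots were well above background in at least 3 animals (chip 5: 2 of 4 RNAs).

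Probes were named through RefSeq gene identifiers (9717), accessions (3398), descriptions (3193), symbols (18) or older symbols (8), and 5141 had no name. Each gene of a list was read at the probe well above background in most animals, then the brightest. The number of animals limits the precision. Chip numbers pair the animals: same-chip scurred and polled deviations correlated at 0.239, 0.289, 0.425 and −0.0824 on chips 1 to 4, and the chip is part of the main fit because both channels of an array share it. The genes named are all probes of the 6 members, up to 4 genes per list and comparison by lowest p, 3 most similar genes per member and, chosen after their values were seen, the bone genes given for scurred replicate 4. The members and lists were chosen with earlier results of these data known. The fitting procedure was tested on simulated data. Some genes that the naming rule or the lists include are not reported here by name, although they stay in the counts and medians of their lists.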

Additional observations from a re-analysis of the deposited data

Results flagged for a closer look

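An animal lay far from the other 3 of its horn type, by Dixon's ratio, in 1 of 16 groups of member values and 6 of 32 groups of bone gene values; chance gives about 1 in 20. The intronic ZEB2 probe stood at 12.79 in polled replicate 3. Among scurred animals IBSP stood at 12.59, DMP1 at 12.42 and PHEX at 8.18, all in replicate 4, and POSTN at 10.56 in another animal. Among polled animals ATF4 stood at 8.17 and SPP1 at 11.84. The TWIST1 horn site minus control site difference was below 0 in both dye orders of the scurred animal and above 0 in both of the polled animal, −0.48 between the 2 animals; this difference was not tested.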

How the results depend on the processing

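No member was called under any of the alternatives run, and 482 of 536 member values kept their direction. MSX1 stayed below 0 in all comparisons under all of them, from −1.25 to −1.08 in scurred minus horned and −0.71 to −0.48 in polled minus horned across other processing, and the bright RUNX2 probe stayed between −1.46 and −1.29 in polled minus horned. Over all probes, the 1 call in polled minus horned became 0 with the scanner's processed signals, with median centring, with the deposited log ratios and in the fit without the replicate block (0 calls); leaving out 1 animal or chip gave 0 to 1. Scurred minus horned had 1 call with median centring and 0 to 1 with 1 animal or chip left out; scurred minus polled had 1 without the sex term and 0 to 2 with 1 left out. Unadjusted p-values under 0.05 numbered 1462, 586 and 942 of 15712 in polled minus horned, scurred minus horned and scurred minus polled in the reported fit, and 1051, 419 and 383 without the replicate block.

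Values near 0 changed sign. With median centring, MSX2 was at −0.06 at the horn site and −0.11 in scurred minus horned, TWIST1 at −0.24 and the ZEB2 transcript probe at 0 at the horn site, the intronic ZEB2 probe at −0.08 in polled minus horned, and the dim RUNX2 probe at 0.18 at the horn site. That RUNX2 probe was at 0.02 there with no background correction, 0.12 with the scanner's processed signals and 0.16 with the deposited log ratios, and at −0.04 in scurred minus horned with the last. Without the replicate block, MSX2 was at −0.16 and the dim RUNX2 probe at −0.01 in scurred minus horned. Without the sex term the ZEB2 transcript probe was at −0.02 in scurred minus polled. The cause of these changes was not tested.

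Leaving out 1 animal or chip gave ranges that crossed 0 for these members. MSX2 ranged from −0.53 to 0 in polled minus horned, −0.11 to 0.19 in scurred minus horned and −0.11 to 0.50 in scurred minus polled. The bright RUNX2 probe ranged from −0.64 to 0.15 and the dim one from −0.08 to 0.12 in scurred minus horned. TWIST1 ranged from −0.67 to 0.45 in polled minus horned, −0.03 to 0.78 in scurred minus horned, −0.41 to 1 in scurred minus polled and −0.18 to 0.30 between the 2 animals at the horn site. The intronic ZEB2 probe ranged from −0.28 to 0.30, −0.50 to 0.13 and −0.62 to 0.09 in polled minus horned, scurred minus horned and scurred minus polled, and the transcript probe from −0.16 to 0.39 in the last. Polled replicate 2 is the polled male, so without it horn type and sex are harder to separate. TWIST2 and the dim RUNX2 probe are limited by their signal over background; with no filter TWIST2 differed by 0 in all 3 comparisons between animals (SE 0.0695 to 0.073).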
